A study of Mus musculus with 8 samples.

Results

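The effect of RIF1 loss on replication initiation was described across the initiation sites (ISs) called in Rif1KO or WT CH12 cells, merged in a single table. CH12 is a murine lymphoma line of B cell origin. The table listed 39116 ISs, of which the 31414 on autosomes other than 10, 15 and 16 were used. Those 3 chromosomes were set aside because their ISs were shifted as blocks, with median log2 fold changes of -0.36, 0.16 and 0.33. The series comprised 8 SNS-seq libraries, 2 for each of WT, Rif1KO, Rif1KO_shLacZ and Rif1KO_shMcm6, all from CH12 cells grown with IL4, CD40 and TGF beta stimulation. WT and Rif1KO, the groups compared here, carried no hairpin and differed by label only in the Rif1 genotype. Replicates came from separately thawed vials of cells. The Rif1-/- lines are clonal derivatives of CH12, and which clone entered SNS-seq is not given in the sources used here, so that genotype and clone cannot be told apart.

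RIF1 is a chromatin-bound adaptor of protein phosphatase PP1. By countering the kinase that activates loaded MCM helicases, it restrains origin firing, and in many cell types it sets the order in which domains replicate. Origins are licensed when ORC loads MCM helicases onto DNA, and only some licensed sites fire in a given cell. SNS-seq enriches the short leading strands made at new forks, so that the reads over a site give a relative measure of initiation, not an absolute rate. Here each value is a share of the reads within the ISs of the table.

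The deposited table held 1 value per condition for each IS, so no test between conditions was possible. Every value was a whole number of reads scaled to a common total of 1000000 (RPM), with 3350255 reads in ISs for WT and 3724571 for Rif1KO, and medians of 73 and 82 reads per IS. All fold changes below are Rif1KO over WT, on the log2 scale unless a percentage or RPM is named. Intervals are exact Clopper-Pearson (folds) or Wilson (shares) intervals at 95% that cover counting error only, since copies made by PCR were not told apart and the spread between replicates is not in the table.

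Most ISs differed by less than 1.5-fold between Rif1KO and WT. Across the 31414 ISs the median log2 fold change was 0.0077 and the SD was 0.25, against 0.24 for the root mean square of the counting standard errors, which leaves a spread beyond counting of 0.081. Both columns were scaled to one total, which places the median near 0. Taking 1.5-fold as a change, 297 ISs (0.945% of those compared) had more density in Rif1KO and 423 (1.35%) had less. The balance turned at a looser threshold of 0.32 on the log2 scale, with 2950 higher and 2764 lower, and among ISs called in both lists 7 were 1.5-fold higher and 57 lower. The counting interval lay above 0 for 261 of the 297 and below 0 for 408 of the 423, ISs that were selected by these same folds. Over all 31414 ISs it lay above 0 for 695 (2.21%) and below 0 for 982 (3.13%). The threshold itself marked no break in the values. The ISs just inside and just outside it had log2 fold changes of 0.588 and 0.584 on the higher side, and of -0.587 and -0.585 on the lower side.

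**Figure D1:**
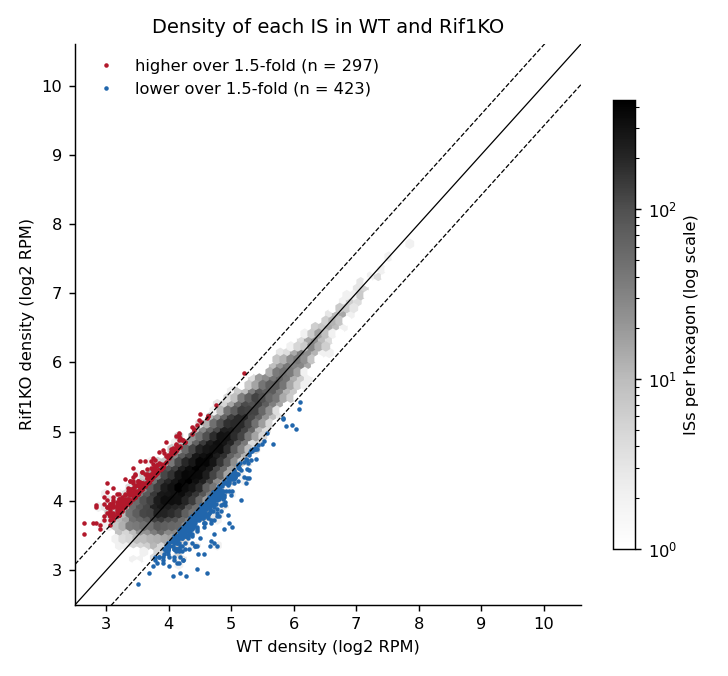
Density of each of the 31414 ISs in WT (horizontal axis) and Rif1KO (vertical axis), both in log2 RPM, with grey hexagons shaded by the number of ISs on a log scale. The solid line marks equal density and the dashed lines 1.5-fold, and the 297 higher (red) and 423 lower (blue) ISs lie along the edges of one continuous cloud, mostly at low density.

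The sequence at the extremes differed in base composition, which is why the central 200 bases are shown for a few ISs at either end of the fold changes, on the plus strand of mm9 with runs of 3 or more G or C in capitals. Among ISs at or above the median density, the lowest without exonic sequence were an intergenic site 1253 bp from the start of Gm10419 and an intronic site in Ttbk1, a tau kinase gene. The highest of the same ISs included an intronic site in Ctcf, which encodes the zinc finger protein that anchors chromatin loops, an intergenic site whose nearest gene was Celf2, and an intronic site in Ppid, a cyclophilin gene.

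Near Gm10419, lower, chr5:108797099-108797298: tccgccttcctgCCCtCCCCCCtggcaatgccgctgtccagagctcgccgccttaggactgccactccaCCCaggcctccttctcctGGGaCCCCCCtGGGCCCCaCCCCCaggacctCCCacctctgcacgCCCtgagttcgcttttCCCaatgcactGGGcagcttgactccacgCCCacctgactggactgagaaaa
Ttbk1 intron, lower, chr17:46592063-46592262: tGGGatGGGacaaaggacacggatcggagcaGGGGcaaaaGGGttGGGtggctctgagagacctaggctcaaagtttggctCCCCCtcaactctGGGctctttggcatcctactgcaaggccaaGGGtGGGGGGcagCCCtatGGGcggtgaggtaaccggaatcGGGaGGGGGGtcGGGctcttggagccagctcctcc
Ctcf intron, higher, chr8:108203394-108203593: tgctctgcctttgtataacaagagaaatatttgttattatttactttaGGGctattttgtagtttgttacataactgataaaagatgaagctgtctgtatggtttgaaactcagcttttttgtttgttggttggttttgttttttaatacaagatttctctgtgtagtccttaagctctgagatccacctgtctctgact
Near Celf2, higher, chr2:7917838-7918037: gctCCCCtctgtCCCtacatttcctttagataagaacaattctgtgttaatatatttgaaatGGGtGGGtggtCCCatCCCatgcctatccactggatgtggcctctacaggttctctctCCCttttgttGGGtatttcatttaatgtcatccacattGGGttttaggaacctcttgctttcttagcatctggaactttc
Ppid intron, higher, chr3:79403306-79403505: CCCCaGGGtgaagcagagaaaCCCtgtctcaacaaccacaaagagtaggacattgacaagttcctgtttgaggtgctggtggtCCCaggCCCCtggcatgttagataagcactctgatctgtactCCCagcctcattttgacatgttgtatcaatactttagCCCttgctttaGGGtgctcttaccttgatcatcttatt

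The 2 stretches from lower ISs held 66.0% and 62.5% GC with 13 and 14 runs of G or C, the longest of 6 bases. The 3 from higher ISs held 33.0%, 43.0% and 47.0% GC with 1, 9 and 8 runs, the longest of 4 bases, and held no CpG. The same stretches of the sites near Pax2 and in Vsnl1, not printed, held 44.0% and 37.5% GC with 4 CpGs and 1 CpG.

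The IS with the lowest fold change among those at or above the median density lay over the promoter of Ptgfrn, a gene for a membrane protein of the immunoglobulin superfamily, on chr3:100914065-100914660. It held 119 reads in WT and 60 in Rif1KO, a log2 fold change of -1.14 (interval -1.61 to -0.68). The Gm10419 site shown above, chr5:108796774-108797624, was called in both conditions and held 220 and 122 reads, a log2 fold change of -1.003 (-1.33 to -0.68). Promoter ISs of Nfatc1, a calcineurin-regulated transcription factor gene, and of Zzz3 followed at -0.98 and -0.96, and the Ttbk1 site at -0.92. Of these 5 ISs, 3 lay over a transcription start site (TSS) and all had a GC content over 62%, from 62.4% to 74.0%. On the higher side, the Ctcf intron site, chr8:108203172-108203816, held 60 reads in WT and 118 in Rif1KO, a log2 fold change of 0.82 (0.36 to 1.30), with 52 TSSs within 500 kb. The Celf2 site held 58 and 114 reads, also at 0.82, and lay 915406 bp from the nearest TSS with 0 TSSs within 500 kb. The sites in Ppid, near Pax2 and in Vsnl1 had log2 fold changes of 0.80, 0.76 and 0.76, with 10, 19 and 7 TSSs within 500 kb. The 5 lowest ISs had 7 to 38. All 5 highest ISs were called in Rif1KO only and lay outside promoters and exons, and their GC content ran from 39.5% to 52.8%.

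**Figure D2:**
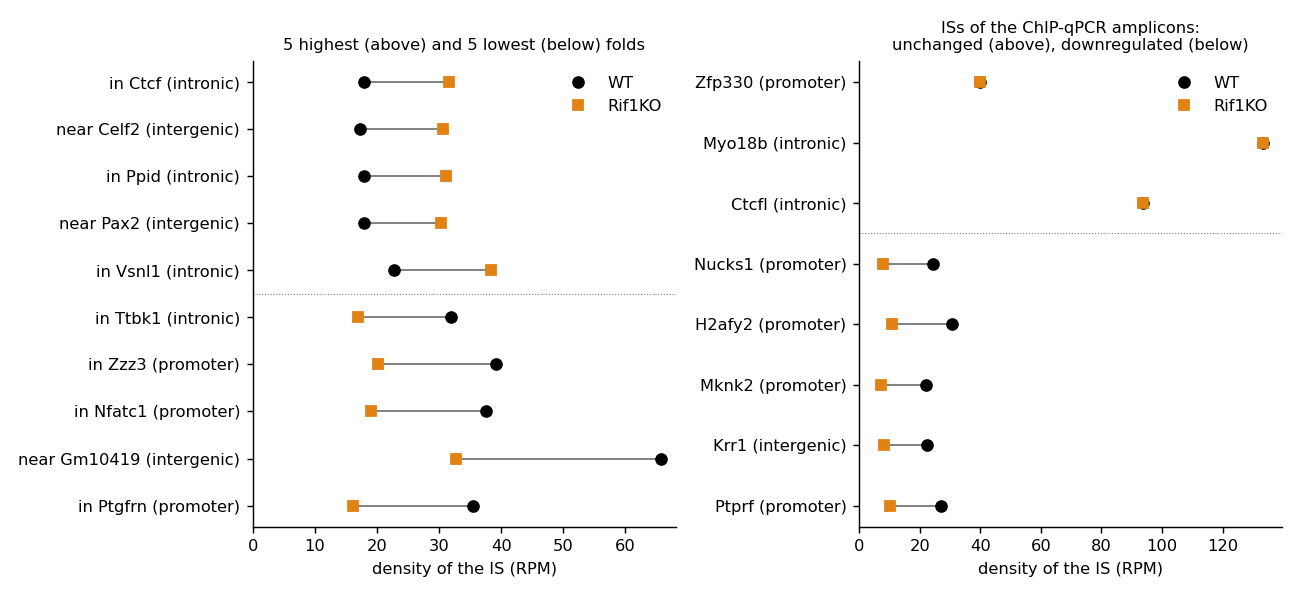
Density in RPM of single ISs in WT (black circles) and Rif1KO (orange squares), joined by a grey line. Left, the extremes of the fold change among ISs at or above the median density, 5 in each direction; right, the 8 ISs that hold designed MCM5 ChIP-qPCR amplicons, where the 3 unchanged sites coincide and the 5 downregulated sites were all lower in Rif1KO.

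The study designed qPCR amplicons for MCM5 occupancy at ISs it had chosen from these libraries as downregulated or unchanged, so the values at those sites are a description and not independent evidence. Each primer pair matched mm9 exactly at a single place, and the pairs are given here as forward and reverse sequences.

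Downregulated 1, Nucks1 promoter: ctctcagcgcatcttgactaac and cattggtgactcctgtcagatg
Downregulated 2, H2afy2 promoter: ccgcatttcggcatcct and ccacctctgccacagaaatta
Downregulated 3, Mknk2 promoter: gaccgtgttggcgactc and ggctgcagtcgagtatcttt
Downregulated 4, intergenic, nearest gene Krr1: ctgcgtttggtctgatgtttg and atccgtaggtatgaggtagtctatt
Downregulated 5, Ptprf promoter: ttgtagaggagtggagctgtag and cgctcgttcctgaggtttaag
Unchanged 1, Zfp330 promoter: ggccagggttccattcatta and tgcctgactcttctgaaatcc
Unchanged 2, Myo18b intron: ttgcttgcctgcctgat and gactgggatgatggtatgactg
Unchanged 3, Ctcfl intron: gggtgatgtgtccctgtaag and gagctggctcagtgtgtataa
Unchanged 4, chromosome X: ctcgacaaagagcaaggggt and ttccggacgggttttaccac

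The amplicon in the promoter of Nucks1, a nuclear DNA-binding protein gene, lay in an IS with 82 reads in WT and 29 in Rif1KO, a log2 fold change of -1.65 (-2.32 to -1.03). That was the lowest of all 31414 ISs. The IS in the promoter of Ptprf, a receptor tyrosine phosphatase gene, held 91 and 38 reads, a log2 fold change of -1.41 (-2.00 to -0.85). The other 3 downregulated amplicons, at H2afy2, Mknk2 and near Krr1, all lay on chromosome 10, which was set aside here. Their ISs had log2 fold changes of -1.48, -1.61 and -1.47, and -1.12, -1.24 and -1.11 after the chromosome's median of -0.36 was subtracted. All 5 lay in ISs called in WT only. The ISs of unchanged amplicons 1 to 3, at Zfp330, Myo18b and Ctcfl, were called in both conditions with 134, 447 and 314 reads in WT and 149, 497 and 349 in Rif1KO, and their log2 fold changes were all below 0.001 in size. Amplicon 4 of the unchanged set fell on chromosome X in no IS of the table, and the nearest IS was 876728 bp away.

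Lower and higher ISs differed in where they lay relative to genes and in base composition. A promoter, taken as 1 kb either side of a protein-coding TSS, held 130 of the 423 lower ISs (30.7%, interval 26.5 to 35.3) and 5 of the 297 higher ISs (1.68%, 0.721 to 3.88), against 6.67% of all ISs. The difference of 29.0 percentage points was 15.8 at the looser threshold and 17.4 on all chromosomes. Intergenic sites made up 33.8% of the lower and 68.4% of the higher ISs, against 57.1% of all ISs. The median lower IS lay 9142 bp from a TSS with 16 TSSs within 500 kb, and the median higher IS 102870 bp from a TSS with 4. Over all ISs these medians were 36992 bp and 8 TSSs. Where ISs overlapped a gene, the median gene length was 60959 bp for lower, 320691 bp for higher and 107249 bp for all ISs. The median GC content was 55.5% for lower, 40.6% for higher and 47.3% for all ISs. Gene position and base composition were not used to form these groups.

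A feature that differed less between the groups was the G-quadruplex motif, 4 runs of 3 or more G separated by 1 to 7 bases on either strand, searched in each IS and 250 bp to each side. It was held by 79.0% of lower, 80.8% of higher and 84.8% of unchanged ISs. In windows of the same length placed 5 kb downstream it was held by 19.4% for lower, 11.1% for higher and 18.03% for unchanged ISs, and by 17.98% overall.

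The same ordering was seen across all ISs when reads were summed by setting, with the ISs past the threshold included. The median log2 fold change of single ISs was -0.134 for promoter and 0.036 for intergenic ISs. Promoter ISs (n = 2096) had a log2 fold of summed reads of -0.144 (-0.152 to -0.136), exonic ISs -0.076 (-0.086 to -0.065), intronic ISs -0.0059 (-0.0101 to -0.0016) and intergenic ISs (n = 17952) 0.027 (0.024 to 0.031). Past 1.5-fold, 6.202% of promoter ISs were lower and 0.239% higher. The 815 ISs that lay over a TSS were lower still, at -0.189 (-0.201 to -0.177), and 10.1% of them passed 1.5-fold on the lower side with 0% on the higher side. ISs over 200 kb from any TSS stood at 0.090 (0.084 to 0.096).

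Gene density moved with the fold. The 2070 ISs with 0 TSSs within 500 kb had a log2 fold of 0.119 (0.109 to 0.130) and the 4637 with over 20 had -0.100 (-0.106 to -0.095). The 4 bins between them lay in order, with no overlap of neighbouring intervals. Within introns, ISs in genes under 20 kb stood at -0.057 (-0.075 to -0.039) and those in genes over 500 kb at 0.055 (0.043 to 0.066). Over ISs called in both lists the genes under 20 kb stood at -0.056 (-0.079 to -0.033) and those over 500 kb at 0.012 (-0.003 to 0.027), an interval that includes 0.

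ISs called in a single condition had more density there, with medians of 0.147 for those called in Rif1KO only and -0.208 for those called in WT only. The comparison was therefore repeated on the 16678 ISs called in both lists. Promoter ISs stood at -0.127 (-0.136 to -0.117) and intergenic ISs at -0.0034 (-0.0076 to 0.0008). ISs with 0 TSSs within 500 kb stood at 0.085 (0.070 to 0.100) and those with over 20 at -0.102 (-0.109 to -0.095). The order of the settings was the same in this set, and the range was narrower on the higher side.

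GC content moved with the fold as well, from 0.116 (0.110 to 0.123) in ISs under 40% GC to -0.214 (-0.227 to -0.201) in those over 65%. Holding GC to 50 to 55% narrowed the gap between promoter and intergenic ISs from -0.171 to -0.043. The gap was wider at the ends of the GC range, where promoter and intergenic ISs stood at -0.012 (-0.060 to 0.036) and 0.127 (0.119 to 0.135) under 40% GC, and at -0.247 (-0.262 to -0.232) and -0.137 (-0.169 to -0.106) over 65%. Holding it to 45 to 50% narrowed the gap between gene-free and gene-dense ISs from 0.220 to 0.115. In that band the ISs called in both lists ran from 0.049 (0.016 to 0.082) with 0 TSSs to -0.046 (-0.063 to -0.029) with over 20. The gap varied between bands. Gene-free and gene-dense ISs stood at 0.157 (0.141 to 0.173) and 0.077 (0.049 to 0.105) under 40% GC. At 55 to 60% they stood at 0.043 (-0.039 to 0.125, 31 ISs) and -0.136 (-0.148 to -0.124). The part that GC-dependent recovery of DNA in the libraries had in the ordering was not tested.

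**Figure D3:**
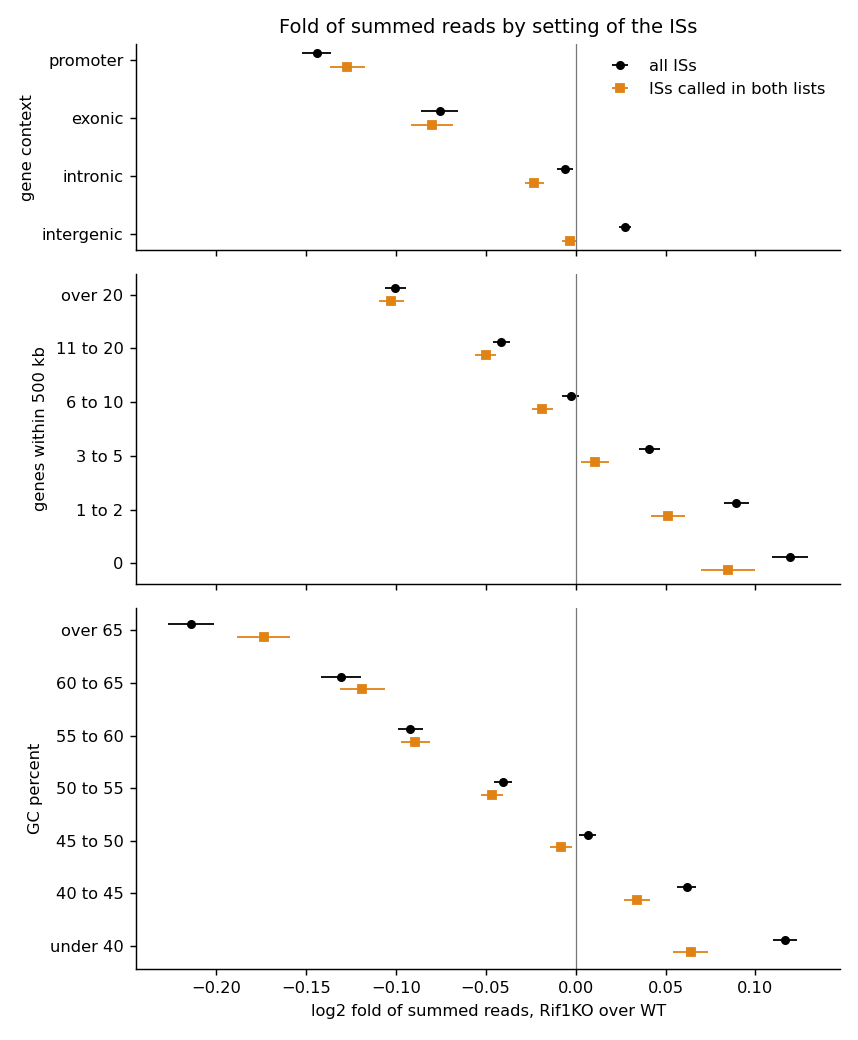
Log2 fold of summed reads, Rif1KO over WT (horizontal axis), for ISs grouped by gene context, by the number of protein-coding TSSs within 500 kb and by GC percent (vertical axes). Black circles are all ISs, orange squares the ISs called in both lists, and bars 95% counting intervals; the values run from -0.144 for promoters to 0.027 for intergenic ISs, and from -0.100 with over 20 TSSs to 0.119 with 0.

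At the level of genes, the ISs of a gene body and 1 kb upstream were summed. Of 18902 protein-coding genes on these autosomes 5615 held an IS, and 4025 had at least 200 reads over the 2 conditions. No gene was 1.5-fold higher in Rif1KO (0% of the 4025), and 20 genes were 1.5-fold lower (0.497%). With a minimum of 400 reads 1 of 2165 genes passed 1.5-fold, and from ISs called in both lists 8 genes did. At a looser threshold, a log2 fold of 0.32 in size, 51 genes were higher (1.27%) and 253 lower (6.29%). The median gene stood at -0.046. An IS over the promoter was present in 18 of the 20 genes past 1.5-fold on the lower side (90%) and in 39.0% of all 4025, and the median length was 13647 bp against 57870 bp. Of the 51 genes past the looser threshold on the higher side 23.5% had a promoter IS, and 29 of them (56.9%) held no IS called in both lists, against 22.0% of all genes. The same held for 10 of the 20 genes past 1.5-fold on the lower side (50%) and for 79 of the 253 past the looser threshold (31.2%).

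The gene with the lowest fold was Fam129c, a gene expressed in B cells, with 37.0 RPM in WT and 20.4 RPM in Rif1KO over a single IS, a log2 fold of -0.86 (-1.29 to -0.44). Smad1, a transducer of BMP signals, stood at -0.85, Ocln, which encodes the tight junction protein occludin, at -0.82, and Ssbp3, which encodes a single-stranded DNA-binding cofactor, at -0.80. None of these 4 genes held an IS called in Rif1KO. Arhgap33 had the best supported of the single-site differences, with 228 reads in WT and 149 in Rif1KO at a promoter IS called in both conditions, a log2 fold of -0.77 (-1.07 to -0.46). Nfatc1 stood at -0.73. Surf4, a cargo receptor gene, and Gm711 are transcribed away from one shared promoter IS and had the same value of -0.72, so they count as a single site. The promoter IS of Yy1, a zinc finger transcription factor gene, had 39.7 RPM in WT and 24.2 RPM in Rif1KO, a log2 fold of -0.72 (-1.12 to -0.32). Sf1, a splicing factor gene with 2 promoter ISs, held the most reads of the group, 332 and 235, at -0.65 (-0.90 to -0.41). Across the 10 genes the GC content of the ISs ran from 62.3% to 76.3%.

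None of the 10 genes with the highest folds reached 1.5-fold. Wdr78, linked to the axonemal dynein of cilia, stood at 0.51 (0.13 to 0.89), Klhl20, an adaptor of a cullin ubiquitin ligase, at 0.50, and Catsperb, a subunit of the sperm calcium channel, at 0.49. Galnt13, a glycosyltransferase gene, held 6 ISs, all called in Rif1KO only, with 302 reads in WT and 465 in Rif1KO, a log2 fold of 0.47 (0.26 to 0.68). It had the narrowest interval of the 10. The germline gene Adad1 stood at 0.45, the interferon-induced GTPase gene Gbp1 at 0.44, Armc1 at 0.44, the retrotransposon-derived gene Rtl1 at 0.44 and the mitochondrial RNA-binding protein gene Ptcd2 at 0.43, and 4930432E11Rik at 0.46. Rtl1 alone among the 10 held a promoter IS, and the GC content ran from 35.2% to 55.2%. Rif1 itself held 2 ISs called in both conditions, with 168 reads in WT and 195 in Rif1KO (0.06, -0.24 to 0.37), and DNA reads of this kind do not check the knockout.

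**Figure D4:**
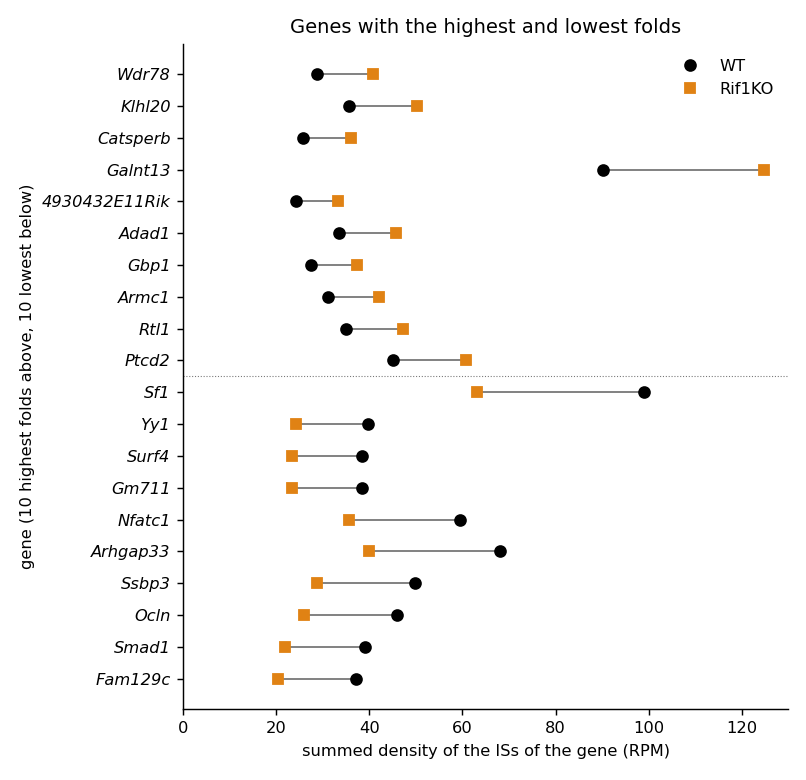
Summed density in RPM of the ISs of single genes, with the 10 highest folds above the dotted line and the 10 lowest folds under it, in WT (black circles) and Rif1KO (orange squares). Galnt13 stands out among the higher genes with the most reads, and Surf4 and Gm711 share a single IS.

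Gene lists were read against the 4025 genes as a whole, of which 1.27% were higher and 6.29% lower at the looser threshold. Their median was -0.046 (quartiles -0.15 and 0.06), so most of the 4025 genes were below 0 as well. Of the 19 genes on these autosomes for origin licensing and the RIF1-PP1 axis, 3 had enough reads, and 0 passed the looser threshold. Among them Orc4, a subunit of the origin recognition complex, held 196 reads in each condition (-0.15, -0.45 to 0.14), and Ppp1cb, a catalytic subunit of PP1, stood at 0.07. Of 6 genes for origin firing and the fork with enough reads, 0 passed it. The lowest was Pold1, the catalytic subunit of DNA polymerase delta, at -0.32 (-0.62 to -0.01), and the highest Prim2, a primase subunit, at 0.16 over 5 ISs. Too few of these genes were measured for their medians to describe either list.

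B cell genes lay near the median of all genes. Of 9 B cell transcription factor genes 8 were below 0 and the median was -0.11, with Ikzf1, the lymphoid factor Ikaros, lowest at -0.25 (-0.57 to 0.06) and Tcf4, an E protein, highest at 0.04. Nfkb1 had the most reads and stood at -0.04 (-0.19 to 0.10). Of 9 genes for B cell receptor signalling and surface proteins 7 were below 0 and the median was -0.08, from -0.28 for Malt1, a paracaspase, to 0.21 for Ptpn6, the phosphatase SHP-1, with Prkcb at -0.06 over 15 ISs. No gene of either list passed the looser threshold. Of 6 genes for class switching and end joining 1 did, namely Mad2l2, a subunit of the shieldin complex, which had 52.2 RPM in WT and 40.3 RPM in Rif1KO, a log2 fold of -0.38 (-0.70 to -0.05). Xrcc4, a ligation cofactor, was the highest of that list at 0.19, and Trp53bp1, which encodes the 53BP1 protein that recruits RIF1 to breaks, had the most reads at -0.12 (-0.33 to 0.10).

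Among the lists with 10 or more genes with enough reads, that of very large genes had the highest median. All 30 with enough reads were within the looser threshold, but only 3 were below 0, and the median was 0.11 against -0.046 for all genes. The summed reads were 23885 in WT and 28192 in Rif1KO. Opcml, a cell adhesion gene, stood highest at 0.30 (0.06 to 0.54), while Sox5, with 27 ISs and the most reads, stood at 0.01 (-0.06 to 0.09) and Csmd2 lowest at -0.06. Over ISs called in both lists the median of 26 of these genes was 0.04. The 5 vomeronasal receptor genes with enough reads were all above 0, with a median of 0.21 and Vmn2r61 highest at 0.23 (-0.02 to 0.49). The receptor copies are similar in sequence, and reads that match several copies were discarded by the unique alignment.

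Other lists held both directions. Of 53 Zfp genes 5 were lower and 2 higher at the looser threshold, with a median of -0.08, from -0.61 for Zfp575 to 0.40 for Zfp788. Of 17 cadherin and contactin genes 0 passed it, and the values ran from -0.32 (-0.68 to 0.04) for Cntn2 to 0.26 (-0.06 to 0.58) for Cntn6, both with intervals that include 0. Of 8 Hox genes 6 were below 0, with a median of -0.13 and a range from -0.18 for Hoxd4 to 0.05 for Hoxd11, but over ISs called in both lists the median of 6 of them was 0.05, of the opposite sign. Against 5615 of all 18902 genes, an IS was held by 6 of 69 ribosomal protein genes, 4 of 39 proteasome genes, 0 of 67 replication-dependent histone genes and 12 of 970 olfactory receptor genes, of which 2 had enough reads. Histone and olfactory receptor genes also include similar copies, to which the limit of unique alignment applies as well. Protocadherin and H2 genes had 2 and 1 genes with enough reads and are not described further.

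On a scale of 1 Mb the differences were small and the windows that were higher were poor in genes. Of 1845 windows with at least 5 ISs, 6 were higher by a log2 fold of at least 0.32 (0.325%) and 0 were lower (0%). In windows of 500 kb 8 were higher and 5 lower, and with 1 Mb windows 2 were higher with at least 10 ISs and 1 from ISs called in both. At the level of the counting interval 269 windows lay above 0 and 252 below it. The 269 had a median of 2 TSSs within 500 kb of their ISs and 41.6% GC, and the 252 had 19.3 TSSs and 52.6% GC. ISs called in Rif1KO only made up 52.0% of the ISs in the first set and 17.0% in the second.

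The highest window, at 61 to 62 Mb of chromosome 6, held 6 ISs with 370 reads in WT and 543 in Rif1KO, a log2 fold of 0.40 (0.21 to 0.60), and its single annotated protein-coding gene was Fam190a. The next, on chromosome 2 from 54 to 55 Mb, held 10 ISs with 476 and 686 reads (0.37, 0.20 to 0.55) and lies over Galnt13. A window on chromosome 1 from 144 to 145 Mb held 12 ISs and 0 protein-coding genes, with 658 and 932 reads (0.35, 0.20 to 0.50). Windows on chromosome 12 from 44 to 45 Mb and on chromosome 19 from 31 to 32 Mb, the last over Prkg1, A1cf and Cstf2t, both stood at 0.34. In 4 of these 5 windows every IS was called in Rif1KO only, and in the fifth 5 of 7 were. The other 2 ISs of the window on chromosome 12, called in both, stood at 0.02 (-0.31 to 0.35), so the value of each of these windows rests on ISs called in Rif1KO only.

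The lowest windows varied in how far they rested on the calls. The window on chromosome 4 from 141 to 142 Mb, with 17 genes that include Casp9, Efhd2 and Dnajc16, held 737 reads in WT and 661 in Rif1KO, a log2 fold of -0.31 (-0.46 to -0.16), and its 5 ISs called in both stood at -0.31 (-0.49 to -0.14). Windows on chromosome 13 from 120 to 121 Mb over Nnt and Paip1, on chromosome 6 from 47 to 48 Mb over Ezh2 and Cul1, on chromosome 11 from 78 to 79 Mb with 27 genes, and on chromosome 7 from 74 to 75 Mb over Mef2a stood at -0.26, -0.26, -0.26 and -0.25. The window on chromosome 7 held 6 genes, and that on chromosome 13, which the end of the chromosome cuts short, held 5. With ISs called in both alone, the window on chromosome 7 stood at -0.13 (-0.37 to 0.10), an interval that includes 0, and in that on chromosome 11 5 of 8 ISs were called in WT only and 1 in both. The windows on chromosomes 13 and 6 stood at -0.23 each, with intervals below 0. Over all windows with at least 5 ISs called in both, 1308 in number, 50 had an interval above 0 and 170 below it.

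The lists of ISs differed between the conditions far more than the densities did. Of the 31414 ISs 16678 were called in both lists, 10449 in Rif1KO only and 4287 in WT only. ISs called in Rif1KO only had a median density of 4.06 log2 RPM in WT and 4.21 log2 RPM in Rif1KO, from medians of 56 and 69 reads, and 290 of them (2.78%) were 1.5-fold higher and 4 were 1.5-fold lower. ISs called in WT only had 4.32 and 4.08 log2 RPM, and 362 of them (8.44%) were 1.5-fold lower and 0 were higher. ISs absent from a list thus still held reads in that condition. The setting of the calls followed that of the folds. Where no TSS lay within 500 kb 52.4% of ISs were called in Rif1KO only and 8.84% in WT only, and with over 20 TSSs 21.1% and 19.0%. A promoter was overlapped by 3.67% of the ISs called in Rif1KO only and by 10.1% of those called in WT only.

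The Rif1KO_shLacZ list came from other libraries of Rif1-/- cells with a control hairpin, and it was much longer, with 84516 ISs on these autosomes. It overlapped 81.97% of ISs called in both, 77.4% (76.6 to 78.2) of those called in Rif1KO only and 68.4% (67.0 to 69.8) of those called in WT only. It overlapped 75.4% (70.2 to 80.0) of the 297 higher and 60.3% (55.5 to 64.8) of the 423 lower ISs, against 78.6% of all ISs, a share within the interval of the higher ISs. Among these groups the share was smallest for the lower ISs, whose median density was also low in Rif1KO, at 3.78 log2 RPM. Of the Rif1KO_shLacZ list, 28.9% overlapped an IS of the merged table.

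ISs lay closer together in the Rif1KO list. WT had 21009 ISs and a median gap to the next IS of 24461 bp (quartiles 10974 and 68188 bp), and Rif1KO had 27145 ISs and a median gap of 21186 bp (9643 and 60491 bp). The sign of the difference in median gap, -3275 bp, depended on which ISs of the Rif1KO list were kept. When the list was cut to its 21009 densest ISs, which changes both its length and its makeup, its median gap was 26295 bp, which is 1834 bp above that of WT. Gaps over 1 Mb numbered 275 in WT, 131 in the whole Rif1KO list and 167 in the cut list, so that long stretches without a site were fewer in Rif1KO with either list. Relative to WT, the Rif1KO list was longest on chromosomes 3 and 1, with 1.44 and 1.43 times as many ISs. It was relatively shortest on chromosomes 7 and 11, with 1.16 and 1.18 times. Rif1KO also had more reads in ISs, 3724571 against 3350255. The part that depth had in the length of its list was not tested.

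**Figure D5:**
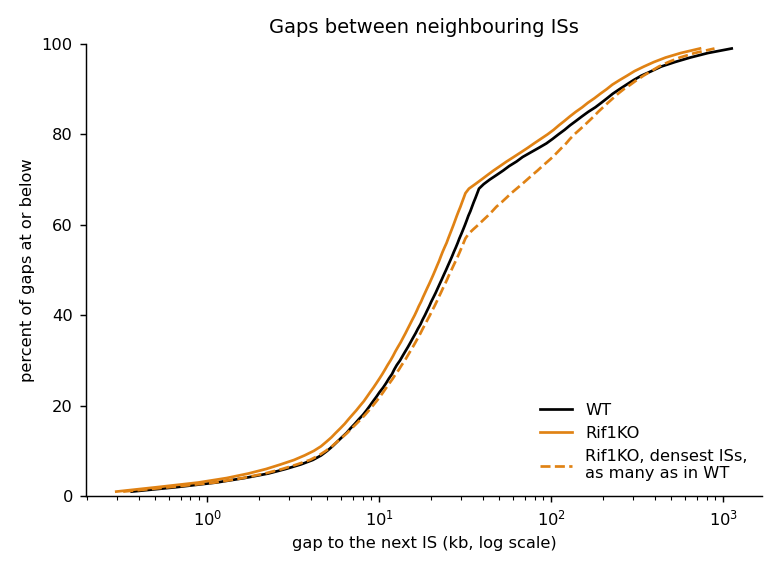
Percent of gaps between neighbouring ISs (vertical axis) at or below a given length in kb (horizontal axis, log scale) in WT, in Rif1KO, and in the Rif1KO list cut to its densest ISs, as many as in WT. The median is 24461 bp in WT, 21186 bp in Rif1KO and 26295 bp in the cut list, and the bend in each full curve lies at the distance beyond which no IS of that list was without a neighbour.

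Clusters of sites, termed zones, were described by linking ISs closer than the median gap of their own list. WT had 6233 zones of 2 or more ISs with a mean of 2.68 ISs and a median length of 17316 bp, and Rif1KO had 8262 with a mean of 2.64 ISs and 15010 bp. The largest zones held 22 and 26 ISs. The difference of -0.042 ISs per zone changed sign with the linking rule, to 0.085 when the WT distance was used in both lists and to 0.024 with the cut list, so no difference in zone size can be stated. The share of ISs in zones was 79.6% in WT and 80.4% in Rif1KO. Linking at the median gap joins the same share of gaps in any list, which largely fixes this value. It was 81.1% in the much longer Rif1KO_shLacZ list.

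The sites called in Rif1KO only were placed relative to the WT zones, which cover 5.97% of the bases of these autosomes and hold 55.3% of all ISs of the table, the WT ISs that form them included. Of the 10449, 686 (6.57%, 6.11 to 7.06) lay inside a WT zone, which at this linking distance was close to the share of the bases. The share of these ISs was 15.2% with 2 times the linking distance and 13.8% with the largest nearest-neighbour distance of the WT list. The bases covered by such wider zones were not computed, so the comparison with bases cannot be made there. ISs that overlap a WT IS count as called in both and could not enter these counts. At the original distance, 2649 (25.4%) lay outside zones but within the linking distance of a WT IS, and 7114 (68.1%) lay farther away. The median distance to the nearest WT IS was 59486 bp. In the same way 300 of the 4287 ISs called in WT only (6.998%) lay inside a Rif1KO zone, where such zones cover 6.79% of the bases and hold 70.4% of all ISs, and 2984 (69.6%) lay beyond the Rif1KO linking distance. Of the Rif1KO zones 2268 (27.5%) held no WT IS, and of the WT zones 629 (10.1%) held no Rif1KO IS. The Rif1KO zones without a WT IS were small, with a mean of 2.19 ISs and at most 5, and had a median of 5 TSSs within 500 kb, against 8 for the other Rif1KO zones. Of 445 WT zones with 5 or more ISs, 335 (75.3%) held at least 5 Rif1KO ISs.

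These counts carry a property of the processing. The authors kept only peaks that lay in a cluster, with a linking distance set for each condition. The largest distance of any IS from its nearest neighbour was 38335 bp in the WT list and 32075 bp in the Rif1KO list, on these autosomes. A site without a neighbour within such a distance could not enter a list, and 61.1% of the ISs called in Rif1KO only lay farther than 38335 bp from any WT IS, as did 63.2% of those called in WT only from any Rif1KO IS at 32075 bp. How many of them had a peak that the cluster filter removed was not tested.

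The folds moved together along the chromosome. Adjacent ISs under 5 kb apart had a correlation of 0.18 in log2 fold change (3949 pairs), and those over 100 kb apart still had 0.11 (5215 pairs). All pairs were drawn from the same 2 pooled values, and how far neighbours share base composition was not measured. In the largest zones of the merged table, those with 10 or more ISs, the log2 fold of summed reads was -0.094 (-0.109 to -0.079, 589 ISs), against 0.0070 (0.0040 to 0.0099) in zones of 2 to 4. Over ISs called in both lists it was -0.094 (-0.111 to -0.078) and -0.020 (-0.024 to -0.016). The ISs of the largest zones had a median of 15 TSSs within 500 kb and 52.4% GC, against 7 and 46.9% in zones of 2 to 4.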

How the data were processed

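SNS-seq values were those deposited for pooled WT and Rif1KO CH12 cells, 1 value per condition and IS. Per the labels and the study's methods, the authors trimmed reads with Trim Galore 0.6.4 and cutadapt 2.6, aligned them uniquely to mm9 with Bowtie 1.2.3, called peaks without input, intersected replicates, kept peaks in clusters linked at each condition's median interpeak distance, and merged both lists with bedtools. The deposited log2 values are RPM on a log2 scale, scaled by the authors over the ISs of the table. How the replicates were pooled is not given in the sources used here. Whole reads were recovered from these values for 100% of entries (tolerance 0.01 reads), which gives the depth of 3350255 reads in WT and 3724571 in Rif1KO. The authors' class column and the lists of Rif1KO_shMcm6 were not used here.

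ISs were annotated with GENCODE M1 on mm9 in Python 3.11.15 with pandas 2.3.3, scipy 1.17.1 and pysam 0.24.0. A change was 1.5-fold for ISs and genes and a log2 fold of 0.32 for windows. Genes needed 200 summed reads, and 1 Mb windows 5 ISs. Interval and pooling code was tested on simulated data. Because there was 1 value per condition, no p-value was computed, and log2 folds take no pseudocount. The text names the 5 highest and 5 lowest ISs at or above the median density, 10 genes and 5 windows in each direction, of each gene list the highest, the lowest and the deepest member, the ISs of the designed amplicons, and Rif1. Other genes listed for a window only say where it lies. The set of ISs, the gene lists and the thresholds were chosen with earlier results of these data known. Alternatives were other thresholds, a density filter, log2(RPM + 1), centring, all chromosomes, ISs called in both lists, and other zone and gene rules. The chromosome counts, the zone setting and the gap table were also chosen after the values were seen.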

Additional observations from a re-analysis of the deposited data

How the results depend on the processing

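No paired analysis was possible because the table holds 1 pooled value per condition, and no replicate could be left out for the same reason. Of 54 alternatives 11 left their result within its counting interval, or within 1.5 times for counts, 40 moved it and 3 reversed it. The share of ISs past 1.5-fold, 2.29% (1.35% lower, 0.945% higher), became 0.127% (0.0923% and 0.0350%) at 2-fold, 18.2% (8.80% and 9.39%) at a looser threshold of 0.32 on the log2 scale, 1.253% (0.947% and 0.306%) without the lowest density quartile, 1.81% (1.11% and 0.704%) with log2(RPM + 1), 4.96% (2.70% and 2.27%) on all chromosomes and 0.384% (0.342% and 0.0420%) for ISs called in both lists. Lower ISs outnumbered higher ones in each of these except at the looser threshold. The promoter share of lower minus higher ISs, 29.0 percentage points, became 15.8 at the looser threshold, 38.6 for ISs called in both (57 lower, 7 higher), 38.0 without the lowest quartile and 17.4 on all chromosomes. The difference in median GC, 14.96 percentage points, became 9.19 at the looser threshold, 16.7 without the lowest quartile and 11.1 on all chromosomes. The median gap difference of -3275 bp became 1834 bp with the Rif1KO list cut to the number of WT ISs. The difference in ISs per zone of -0.042 became 0.024 with the cut list and 0.085 with the WT distance in both lists. The share of ISs called in Rif1KO only inside WT zones, 6.57%, became 15.2% with 2 times the linking distance and 13.8% with the largest nearest-neighbour distance of the WT list. The 20 genes past 1.5-fold became 1 with 400 reads, 304 at the looser threshold and 8 from ISs called in both. The 6 windows past 0.32 became 13 at 500 kb (8 higher, 5 lower), 0 at 1.5-fold, 2 with at least 10 ISs and 1 from ISs called in both. The alternatives on ISs called in both for genes and windows, on nearest-neighbour distances and on the gaps between settings were chosen after seeing the data. On all chromosomes the gap between promoter and intergenic ISs was -0.195 and that between gene-free and gene-dense ISs 0.245. Apart from the settings that change the threshold or the set of sites by construction, the cause was not tested. Counting alone gave a single IS a median standard error of 0.23 on the log2 scale, so differences of that size could not be told from counting error.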

Other observations

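Chromosome X held only 159 ISs of the table, of which 59 were called in Rif1KO only. Their median log2 fold change was -0.05, with 2 ISs higher and 7 lower past 1.5-fold. The number of ISs per Mb also differed widely between the autosomes kept. Chromosome 14 had 16.9 ISs per Mb in WT and 22.5 in Rif1KO, while gene-rich chromosome 11 had 14.8 and 17.4 and chromosome 1 had 7.49 and 10.7. The median log2 fold change of chromosome 14 was 0.04, within the range of -0.03 to 0.05 of the 16 autosomes kept, so its high number of sites was shared by both conditions. Copy number was not measured in the files used here.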
